A study of Mus musculus with 5 samples.

Results

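Lysosomal hydrolases, cathepsins and membrane proteins were followed as a group of 48 genes in mouse bone marrow cells labelled as monocytes, with Tet2 mutant libraries set against wild-type libraries. The genes are named by symbol for what their proteins do, in a list drawn up with earlier results of these data known. All 48 were found among the 55291 gene symbols of the count tables. They comprise 14 proteases, the thiol reductase Ifi30, 10 glycosidases, 4 sulfatases, 5 lipid and acyl enzymes, 8 membrane proteins, 3 soluble cofactors or carriers and the 3 transcription factors Tfeb, Tfe3 and Mitf.

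The study has 2 Tet2 mutant libraries (replicates 2 and 3) and 3 wild-type libraries (replicates 1, 2 and 3), each a bulk mRNA-seq library made with a SMARTer kit from bone marrow RNA. Tet2 encodes a dioxygenase that oxidises methylcytosine in DNA and is recurrently mutated in myeloid disease. The sources used here do not give the kind of Tet2 allele, the meaning of HR in the mutant titles, mouse strain and age, any treatment or the way cells were isolated. Nothing in the labels ties the libraries to separate animals, and the p-values therefore reflect variation among these 5 libraries alone, some of which could be technical.

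Total gene counts were 17459808 and 60508381 in the mutant libraries, against 53789308 to 72414875 in the wild-type libraries. At least 1 count was present for 18047 and 17944 genes in the mutant libraries, against 24532 to 26207 genes in the wild-type libraries. The part of this difference in the lysosomal results was not tested. Tet2 transcript was measured at 5.31 and 15.6 CPM (counts scaled to a TMM-adjusted library size) in mutant replicates 2 and 3, against 9.77 to 11.9 CPM in wild type, and this level does not check the labels because the site of the mutation is not known here. All 15 monocyte markers were above 1 CPM in every library, so the labelled cell type was represented, with 6 of them higher and 1 lower in the mutant. Other cell types were represented too. Marker calls in this paragraph are by the edgeR test described below, which called 10.6% of all genes higher and 4.43% lower. Among all genes with a mean of 100 CPM or more it called 24.7% higher. Of 18 macrophage markers 13 were higher in the mutant (summed level 8325 to 9396 CPM in mutant, 1020.4 to 1283 CPM in wild type), as were 9 of 13 conventional dendritic cell markers (18338 to 26672 CPM, against 493 to 756 CPM), 6 of 14 T and NK cell markers (1286 to 1441 CPM, against 327 to 391 CPM), 3 of 14 B and plasma cell markers (8234 to 21107 CPM, against 1567 to 6356 CPM) and 15 of 15 tested pancreatic acinar markers (852 to 2019 CPM, against 40.9 to 57.4 CPM). Of 15 neutrophil markers 0 were called (edgeR), with 4 at an unadjusted p under 0.05 (23546 to 55059 CPM, against 50452 to 63159 CPM). Their median log2 fold change, mutant over wild type, was -1.14. For 9 of the 15 both mutant libraries lay below every wild-type library, where 33.3% of all genes did so. Siglec1, a marker of marrow macrophages, had 3 and 0 counts in mutant and 34 to 83 counts in wild type. Calcr and Oscar, which define osteoclasts, were at 0 in both mutant libraries. In each wild-type library 4 of the 8 osteoclast markers were under 1 CPM, against 2 and 3 in mutant. Of 6 tested osteoclast markers 3 were higher (648 to 765 CPM, against 181 to 207 CPM). Most of that sum was Acp5, a lysosomal enzyme reported again below, at 528 and 592 CPM in mutant and 128 to 165 CPM in wild type. The part these cell types play in the lysosomal results was not tested, and in bulk RNA fewer cells of a type cannot be told apart from less RNA per cell. Tet2 mutant replicate 2 held both Xist (27.4 CPM) and the Y-linked Ddx3y (14.7 CPM). Mutant replicate 3 and wild-type replicate 3 held Xist at 21.1 and 32.3 CPM with Ddx3y at 1.22 and 0.163 CPM, and wild-type replicates 1 and 2 held Ddx3y at 71.4 and 69.1 CPM with Xist at 0.188 and 0.179 CPM. Pearson correlations of log2 CPM over the 48 genes, which are not independent replicates and share their library, were 0.926 between the mutant libraries, 0.848 to 0.895 between genotypes and 0.979 to 0.992 between wild-type libraries. Over all genes tested mutant replicate 2 stood closer to wild type, with correlations of 0.904 to 0.910 with wild-type libraries and 0.885 with mutant replicate 3.

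Lysosomes are acidic organelles in which hydrolases break down proteins, glycans and lipids delivered by endocytosis, phagocytosis and autophagy. Most cathepsins are cysteine proteases of the papain family, and in antigen-presenting cells they trim the invariant chain and cut antigens for loading on MHC class II. TFEB, TFE3 and MITF are related factors that bind an E-box element in the promoters of many lysosomal genes, known as the CLEAR element, whose core includes GTCACGTG.

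That element was looked up in the promoters because it is the sequence feature that lysosomal genes are best known to share. RefSeq promoters (build GRCm38.p6) were matched for 43 of the 48 genes, leaving Ctsb, Ctse, Ctsh, Asah1 and Npc1 unmatched. The letters GTCACGTG, on either strand in the 250 bases before the start, occurred in 571 of 27025 genes (2.11%) and in 12 of the 43 lysosomal genes (27.9%), namely Ctsa, Ctsd, Lgmn, Ifi30, Gla, Glb1, Naglu, Arsa, Sgsh, Lamp1, Cln3 and Mcoln1. Among matched genes that were higher in the mutant by the test below, 3 of 12 held it (25%), against 9 of 31 that were not called (29%). The shorter E-box CACGTG, which lies within it, occurred in 6.86% of all genes and in 15 lysosomal genes (34.9%). The windows below show the match in the 3 genes that were higher in the mutant and in 5 that were not called, with GTCACGTG or its reverse complement CACGTGAC in capitals and each window read along the gene's strand. The windows of the higher genes were chr2:164833743-164833772 (+) for Ctsa, chr12:102439120-102439159 (-) for Lgmn and chr8:70766836-70766875 (-) for Ifi30. Those of the genes that were not called were chr7:142387902-142387941 (-) for Ctsd, chr8:3500458-3500497 (+) for Mcoln1, chr7:126583336-126583375 (-) for Cln3, chr8:13159117-13159156 (+) for Lamp1 and chr9:114401012-114401051 (+) for Glb1.
Ctsa: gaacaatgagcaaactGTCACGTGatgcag
Lgmn: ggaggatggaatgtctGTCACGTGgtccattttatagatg
Ifi30: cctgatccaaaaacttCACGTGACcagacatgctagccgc
Ctsd: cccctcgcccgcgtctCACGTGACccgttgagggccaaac
Mcoln1: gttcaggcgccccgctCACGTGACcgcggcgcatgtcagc
Cln3: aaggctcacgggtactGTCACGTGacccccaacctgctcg
Lamp1: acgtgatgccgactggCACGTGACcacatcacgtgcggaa
Glb1: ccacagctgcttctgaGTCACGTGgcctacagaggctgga

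The promoter of Ctss, the gene with the largest fold change of the group, held no CACGTG in its window. It is shown over 120 bases up to the start (chr3:95526666-95526785, +), with capitals on a pair of GAAA motifs and the 2 bases between them, the spacing found in interferon-stimulated response elements. That pattern was searched after this sequence had been seen. It occurred on either strand in 3.46% of all genes and in Ctss and Lamp1 among the 43.
Ctss: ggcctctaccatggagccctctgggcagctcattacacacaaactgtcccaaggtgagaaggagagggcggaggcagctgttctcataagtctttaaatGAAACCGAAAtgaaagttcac

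Across the group, 15 of 48 genes were higher in the Tet2 mutant and 0 were lower. All 48 passed the filter on low counts. The test was edgeR's quasi-likelihood F-test over 17062 genes with Benjamini-Hochberg adjustment and a threshold of 0.05, with 24 members at an unadjusted p under 0.05. Of all genes tested 15.0% were called, 10.6% higher and 4.43% lower in the mutant. The median log2 fold change, mutant over wild type, was 0.57 over the 48 genes and -0.07 over all genes tested. Both mutant libraries lay above every wild-type library for 28 members, where 22.9% of all genes did so, and below every wild-type library for 4 members, where 33.3% of all genes did so. Counts of the 48 genes made up 2.06% and 1.90% of all counts in the mutant libraries, against 1.07%, 1.01% and 1.08% in wild type. Such a share is itself a scaling to raw library totals and is weighted to the abundant members. Under that scaling the median log2 fold change of the 48 genes was 0.036.

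These counts moved with the processing. With the Xist class of the library as a covariate (low in wild-type replicates 1 and 2, high in the other 3 libraries), 4 of the 15 genes were called, namely Ctss, Lgmn, Cd68 and Ctsh, where 0.592% of all genes were called higher. Without Tet2 mutant replicate 3, where the lone mutant library is assumed to vary like the wild type, 26 were called higher and 2 lower, where 21% of all genes were called higher and 18.4% lower. Scaling to raw library totals moved the median of all genes to -0.58 and that of the 48 genes to 0.036, with 14 called higher and 3 lower (Arsb, Tfe3 and Cln3), where 6.92% of all genes were called higher and 16.9% lower.

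**Figure D1:**
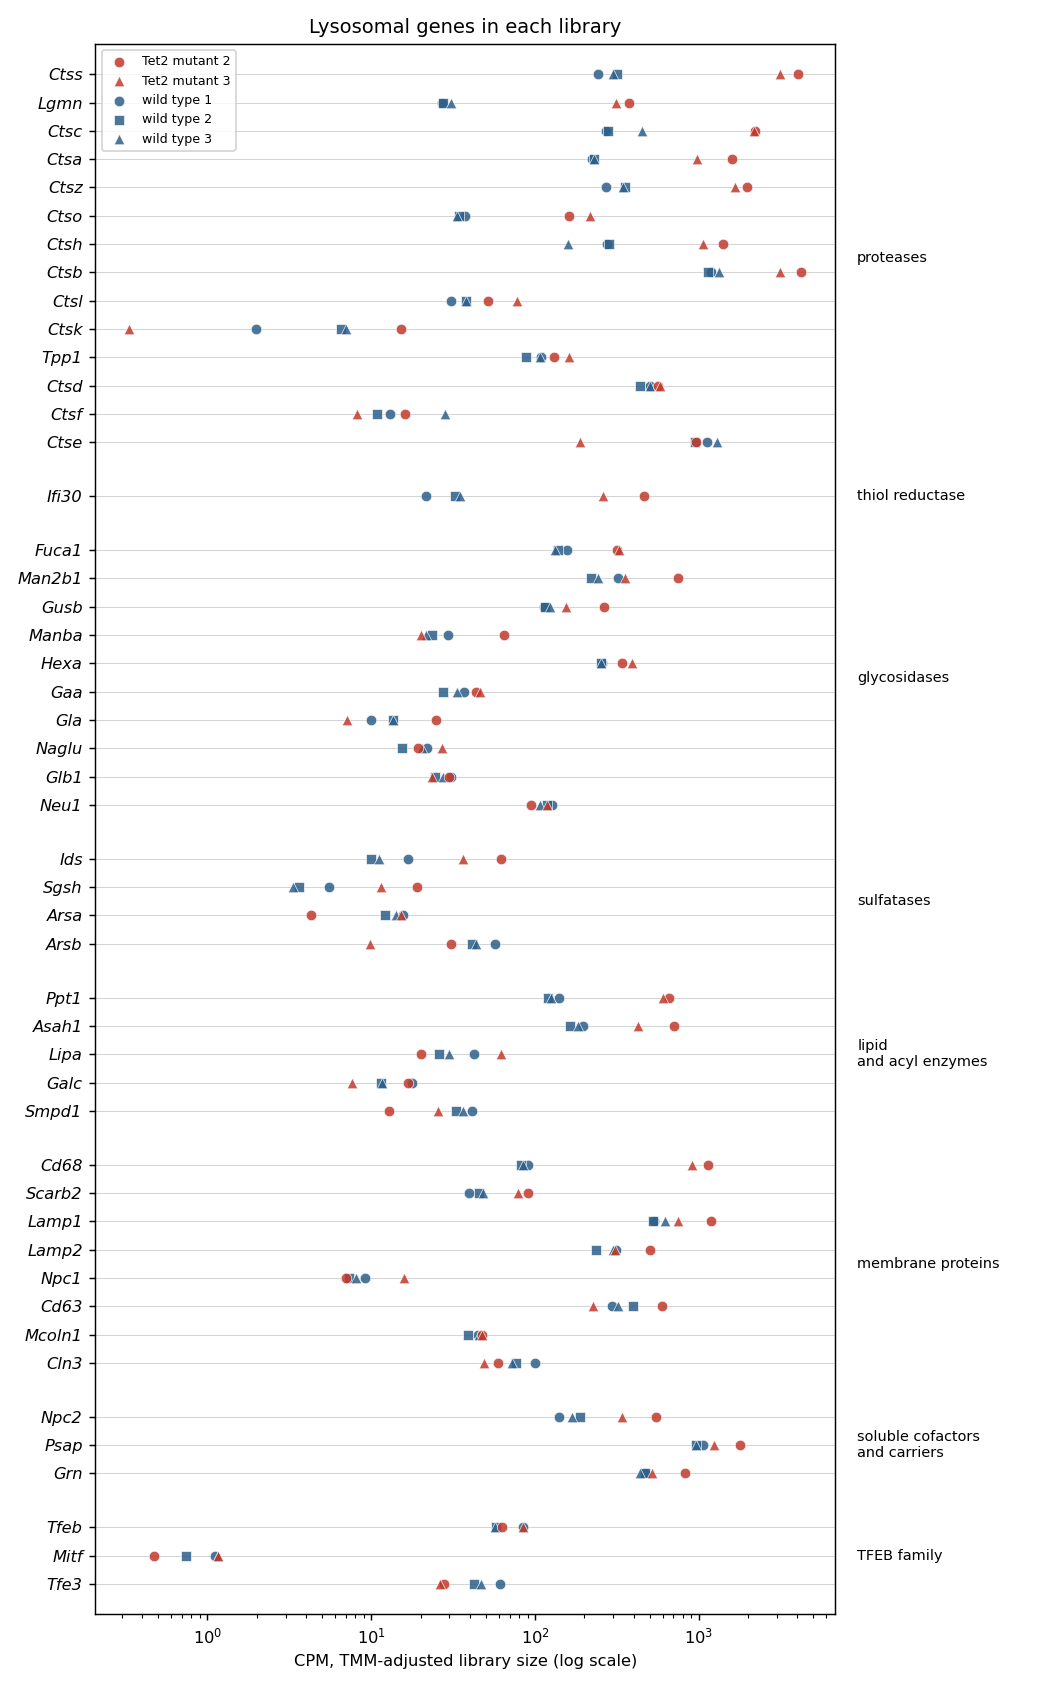
Level of each of the 48 genes (CPM on TMM-adjusted library size, log axis) in the 2 Tet2 mutant libraries (red) and the 3 wild-type libraries (blue), ordered by role and, within a role, by fold change. Ctss, at 4034 and 3133 CPM in mutant and 242 to 317 CPM in wild type, is among the genes whose genotypes lie far apart, while Ctsk and Ctse show the mutant libraries far apart from each other.

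The proteases held most of the change. Of 14 proteases 8 rose (57.1%, against 10.6% of all genes tested) and 0 fell, with a median log2 fold change of 1.98. Of the 12 cathepsins among them 7 rose. Macrophage and conventional dendritic cell markers were higher in the same libraries, with the summed levels given above.

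Ctss, the cathepsin that carries out the last steps of invariant chain cleavage, stood at 4034 and 3133 CPM in mutant replicates 2 and 3, against 242, 317 and 299 CPM in wild-type replicates 1, 2 and 3. The genotypes were far apart and did not overlap. Means were 3583 ± 637 CPM in mutant (SD, n = 2) and 286 ± 39.4 CPM in wild type (SD, n = 3), a log2 fold change of 3.65 ± 0.28 (SE; edgeR adjusted p = 0.000884). The gene lies at chr3:95526786-95556403 (+) in GRCm38, beside Ctsk at chr3:95499256-95509362 (+). Ctsk, a collagen-degrading cathepsin best known from osteoclasts, was far less abundant, with 15.3 and 0.332 CPM in mutant and 1.98, 6.56 and 6.99 CPM in wild type. The mutant libraries lay on either side of all wild-type libraries, with 193 counts in replicate 2 and 18 in replicate 3, and the log2 fold change of 0.58 ± 1.28 was not called (edgeR adjusted p = 0.752). Its sign depended on the library: without Tet2 mutant replicate 2 the estimate was -3.95 (adjusted p = 0.0115).

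Lgmn (chr12:102394084-102439813, -), the asparaginyl endopeptidase legumain that also matures other cathepsins, stood at 376 and 310 CPM in mutant, against 27.0, 27.5 and 30.8 CPM in wild type. The wild-type libraries lay close together, and neither mutant library came near them. Its log2 fold change was 3.59 ± 0.24 (SE; edgeR adjusted p = 0.000847). Ifi30 (chr8:70762774-70766663, -), the thiol reductase GILT that opens disulfide bonds of antigens in the endocytic pathway, stood at 464 and 259 CPM in mutant, against 21.6, 32.3 and 35.0 CPM in wild type. Again the genotypes did not overlap, although the mutant libraries differed 1.79-fold from each other. Ifi30 rose by 3.61 ± 0.35 on the log2 scale (SE; edgeR adjusted p = 0.00199).

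Ctsc, the dipeptidyl peptidase that activates granule serine proteases, stood at 2201 and 2184 CPM in mutant, against 269, 278 and 448 CPM in wild type. The mutant libraries were nearly equal, and the spread lay within wild type. Its log2 fold change was 2.72 ± 0.31 (SE; edgeR adjusted p = 0.00343). Ctsz, a carboxypeptidase also called cathepsin X, stood at 1958 and 1666 CPM in mutant, against 271, 354 and 345 CPM in wild type. No library crossed between the genotypes, and the log2 fold change was 2.49 ± 0.26 (adjusted p = 0.00225). Ctsh, an aminopeptidase, stood at 1410 and 1062 CPM in mutant, against 276, 282 and 160 CPM in wild type. Wild-type replicate 3 was the lowest, the genotypes did not overlap, and the log2 fold change was 2.37 ± 0.33 (adjusted p = 0.00687). Ctso, a less studied cysteine cathepsin, stood at 160 and 217 CPM in mutant, against 37.1, 34.2 and 33.2 CPM in wild type. Here mutant replicate 3 was the higher of the mutant pair, and the log2 fold change was 2.44 ± 0.25 (adjusted p = 0.00225).

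Ctsb, an endopeptidase and carboxydipeptidase, was already abundant in wild type. It stood at 4222 and 3123 CPM in mutant, against 1184, 1144 and 1327 CPM in wild type. The libraries did not overlap, and the rise, 1.59 ± 0.26 on the log2 scale (SE; edgeR adjusted p = 0.0135), had the lowest estimate among the 8 proteases that rose. Ctsa, a serine carboxypeptidase called protective protein because it shelters Neu1 and Glb1 in a complex, stood at 1598 and 969 CPM in mutant, against 224, 230 and 229 CPM in wild type. The wild-type libraries hardly differed, both mutant libraries lay well above them, and the log2 fold change was 2.50 ± 0.28 (adjusted p = 0.00348).

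The other 6 proteases were not called. Ctsd, the main aspartic protease of lysosomes, stood at 562 and 580 CPM in mutant, against 503, 437 and 505 CPM in wild type. The mutant libraries lay just above wild type, with a log2 fold change of 0.24 ± 0.23 (SE; edgeR adjusted p = 0.439). Ctse, an aspartic protease of endosomes that is also abundant in red cell precursors, stood at 956 and 189 CPM in mutant, against 1124, 945 and 1293 CPM in wild type. Mutant replicate 2 lay within the wild-type range and replicate 3 far below it, and the estimate of -0.97 ± 0.61 was not called (adjusted p = 0.260). Erythroid markers moved the same way, with summed levels of 17820 and 2516 CPM in mutant replicates 2 and 3, against 8916 to 21590 CPM in wild type; their part in the level of Ctse was not tested. Ctsl, which performs invariant chain cleavage in thymic epithelium, stood at 51.6 and 77.5 CPM in mutant, against 30.7 to 38.1 CPM in wild type, and Tpp1, a tripeptidyl peptidase, at 131 and 162 CPM, against 87.8 to 109 CPM. Both genes lay above wild type in both mutant libraries without passing the test (log2 fold changes 0.86 and 0.53, adjusted p = 0.0882 and 0.146). Ctsf, another cysteine cathepsin, was scarce, with 8.18 to 16.1 CPM in mutant and 10.9 to 28.1 CPM in wild type.

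**Figure D2:**
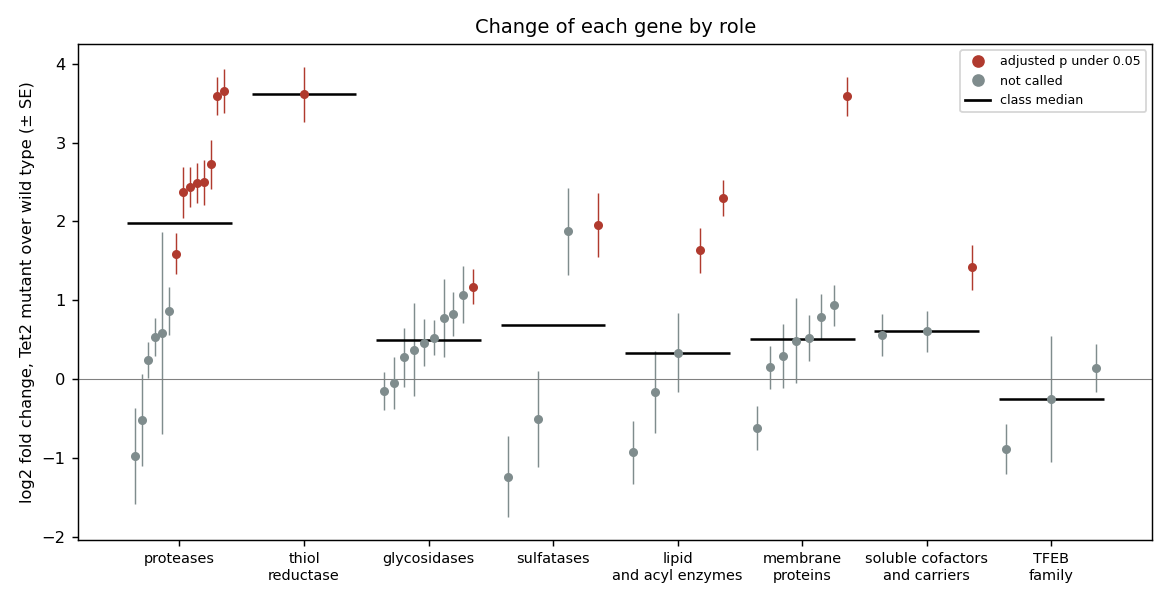
Log2 fold change of each gene (Tet2 mutant over wild type, vertical axis; bars are ± 1 SE) by role of its protein, with genes past an edgeR adjusted p of 0.05 in red, the others in grey, and class medians as black lines. The protease median is 1.98 and the glycosidase median 0.49, and genes called higher are in every class but the TFEB family.

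Glycosidases, which strip sugars from glycoproteins, glycolipids and glycosaminoglycans, moved less than proteases. Of 10 glycosidases 1 rose (10%, against 10.6% of all genes tested) and 0 fell, with a median log2 fold change of 0.49, which was -0.012 with raw library totals. The difference between the protease and glycosidase medians was 1.49, and it lay between 1.24 and 1.54 under every scaling, filter, test, covariate, left-out library and length correction tried. Fuca1, which removes fucose, was the glycosidase that rose, with 317 and 326 CPM in mutant, against 157, 138 and 133 CPM in wild type. Neither mutant library overlapped wild type, and the log2 fold change was 1.17 ± 0.22 (SE; edgeR adjusted p = 0.0204), a call lost with raw library totals (0.66), the replicate block or the Xist covariate and without wild-type replicate 2 or 3.

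Man2b1, the acid alpha-mannosidase, stood at 747 and 354 CPM in mutant, against 322, 221 and 243 CPM in wild type. Mutant replicate 3 lay just above the highest wild-type library, and the gene was not called (log2 fold change 1.07 ± 0.36, edgeR adjusted p = 0.0773). Gusb, the beta-glucuronidase, stood at 262 and 155 CPM in mutant and 114 to 123 CPM in wild type, with an adjusted p of 0.0808. Hexa, the alpha subunit of beta-hexosaminidase, stood at 338 and 393 CPM in mutant, against 258, 252 and 254 CPM in wild type. Its libraries did not overlap, yet the log2 fold change of 0.52 ± 0.22 was not called (adjusted p = 0.127). Gaa, which digests glycogen, was also above wild type in both mutant libraries, with 43.9 and 46.0 CPM in mutant and 27.3 to 37.0 CPM in wild type (adjusted p = 0.271).

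The partners of Ctsa in that complex were not called. Neu1, the lysosomal sialidase, stood at 94.4 and 118 CPM in mutant, against 128, 118 and 107 CPM in wild type, and Glb1, the beta-galactosidase, at 29.7 and 23.4 CPM in mutant, against 30.5, 24.5 and 27.2 CPM in wild type. For both genes the genotypes overlapped (log2 fold changes -0.15 ± 0.24 and -0.05 ± 0.33, edgeR adjusted p = 0.662 and 0.924). The ratio of Ctsa to Neu1 counts within a library, which does not depend on scaling, was 16.9 and 8.23 in mutant, against 1.75, 1.95 and 2.14 in wild type. For Ctsa to Glb1 it was 53.8 and 41.4 in mutant, against 7.33, 9.38 and 8.42 in wild type. The genotypes did not overlap in either ratio, which follows from the levels of Ctsa and its partners and adds no separate result. Gla, Manba and Naglu, which remove galactose, mannose and N-acetylglucosamine, overlapped between the genotypes, and Gla and Manba differed 3.52-fold and 3.20-fold between the mutant libraries.

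Of 4 sulfatases, which desulfate glycosaminoglycans and sulfatide, 1 rose (25%, against 10.6% of all genes tested), and the class had estimates on either side of 0. Ids, the iduronate-2-sulfatase, stood at 62.2 and 36.2 CPM in mutant, against 16.8, 10 and 11.1 CPM in wild type. The genotypes did not overlap, with a log2 fold change of 1.96 ± 0.41 (SE; edgeR adjusted p = 0.0273), a call lost with the replicate block or the Xist covariate and without wild-type replicate 2 or 3. Sgsh, a sulfamidase of heparan sulfate, had a like fold at lower counts, with 19.0 and 11.5 CPM in mutant, against 5.56, 3.61 and 3.31 CPM in wild type. Its log2 fold change of 1.87 ± 0.55 missed the threshold (adjusted p = 0.0578). Arsb, which acts on dermatan sulfate, had the lowest estimate of the group, with 30.5 and 9.76 CPM in mutant, against 56.9, 41.4 and 43.4 CPM in wild type. Both mutant libraries lay below every wild-type library, but the difference of -1.24 ± 0.51 was not called (adjusted p = 0.121). Within each library the counts of Ids stood to those of Arsb at 2.04 and 3.70 in mutant, against 0.296, 0.242 and 0.256 in wild type. This ratio could not overlap, since Ids lay above and Arsb below wild type in both mutant libraries, so it adds no separate result. Arsa, which acts on sulfatide, stood at 4.28 and 15.3 CPM in mutant and 12.2 to 15.7 CPM in wild type, with only 54 counts in mutant replicate 2.

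Among the 5 lipid and acyl enzymes 2 rose (40%, against 10.6% of all genes tested), with a class median of 0.33. Ppt1, which removes palmitate from proteins, stood at 658 and 602 CPM in mutant, against 141, 120 and 126 CPM in wild type. The mutant libraries lay close together and far above wild type, and the log2 fold change was 2.29 ± 0.23 (SE; edgeR adjusted p = 0.00208). Asah1, the acid ceramidase, stood at 704 and 424 CPM in mutant, against 196, 164 and 184 CPM in wild type. There was no overlap, and the log2 fold change was 1.63 ± 0.28 (adjusted p = 0.0156). Smpd1, the acid sphingomyelinase that forms the ceramide Asah1 cleaves, stood at 12.8 and 25.6 CPM in mutant, against 41.1, 32.8 and 36.4 CPM in wild type. Both mutant libraries were below wild type without a call (-0.93 ± 0.40, adjusted p = 0.131). Lipa, the acid lipase, and Galc, the galactosylceramidase, overlapped between the genotypes, and Lipa stood at 20.1 and 62.2 CPM in the mutant libraries, against 26.1 to 42.4 CPM in wild type.

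Of 8 membrane proteins 1 rose (12.5%, against 10.6% of all genes tested). Cd68 (chr11:69664213-69666153, -), the heavily glycosylated macrosialin of macrophages and other phagocytes, stood at 1136 and 914 CPM in mutant, against 90.1, 81.6 and 84.3 CPM in wild type. The wild-type libraries were nearly equal and both mutant libraries far above them. Its log2 fold change was 3.59 ± 0.24 (SE; edgeR adjusted p = 0.000847), while the other 7 had estimates of -0.62 to 0.94. Lamp1, the main structural protein of the lysosomal membrane, stood at 1194 and 751 CPM in mutant, against 531, 528 and 625 CPM in wild type. Both mutant libraries were above wild type, but the log2 fold change of 0.79 ± 0.28 was not called (adjusted p = 0.0871). Within a library the ratio of Cd68 to Lamp1 counts was 0.952 and 1.22 in mutant, against 0.170, 0.155 and 0.135 in wild type, without overlap. This too follows from the levels of both genes and adds no separate result.

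Scarb2, the carrier of glucocerebrosidase also called LIMP-2, stood at 90.3 and 79.1 CPM in mutant, against 39.5, 45.5 and 47.8 CPM in wild type, and missed the threshold narrowly (log2 fold change 0.94 ± 0.26, edgeR adjusted p = 0.0509). Lamp2, the companion of Lamp1 that also serves chaperone-mediated autophagy, and Cd63, a tetraspanin of late endosomes, overlapped between the genotypes. Lamp2 stood at 308 to 501 CPM in mutant and 236 to 310 CPM in wild type, and Cd63 at 227 to 596 CPM in mutant and 294 to 396 CPM in wild type. Mcoln1, a calcium channel of the lysosomal membrane, stood at 47.7 and 47.8 CPM in mutant, against 44.8, 38.9 and 45.5 CPM in wild type, a difference of 0.15 ± 0.27 on the log2 scale that was within its error. Cln3, a membrane protein lost in juvenile Batten disease, was below wild type in both mutant libraries, with 59.0 and 49.0 CPM in mutant and 72.6 to 100.2 CPM in wild type, without a call (-0.62 ± 0.28, adjusted p = 0.141). Npc1, the cholesterol exporter, was scarce at 7.05 and 15.9 CPM in mutant and 7.31 to 9.22 CPM in wild type. Its soluble partner Npc2, which hands cholesterol to Npc1, stood at 547 and 341 CPM in mutant, against 141, 188 and 169 CPM in wild type. Npc2 did not overlap between the genotypes and had a log2 fold change of 1.42 ± 0.29 (adjusted p = 0.0249). The ratio of Npc2 to Npc1 counts within a library did overlap. It was 77.6 and 21.4 in mutant, against 15.3, 25.8 and 20.7 in wild type.

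Psap, the precursor of the saposins that present sphingolipids to their hydrolases, stood at 1780 and 1237 CPM in mutant, against 1059, 961 and 955 CPM in wild type. Grn, the precursor of granulins, stood at 824 and 521 CPM in mutant, against 467, 466 and 436 CPM in wild type. For both genes each mutant library lay above every wild-type library, but neither was called (log2 fold changes 0.60 and 0.56, edgeR adjusted p = 0.134 and 0.164).

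None of the 3 TFEB family genes was called (edgeR), with Tfe3 at an unadjusted p under 0.05. Tfeb stood at 62.8 and 84.1 CPM in mutant, against 84.8, 58.1 and 56.7 CPM in wild type, overlapping throughout (log2 fold change 0.14 ± 0.30, adjusted p = 0.743). Tfe3 stood at 27.9 and 26.5 CPM in mutant, against 60.8, 42.6 and 47.1 CPM in wild type. Both mutant libraries were below wild type, with an estimate of -0.89 ± 0.31 (adjusted p = 0.0866) that stayed negative in all 14 alternatives. Among alternatives that kept both mutant libraries, Tfe3 passed the threshold only with upper-quartile scaling and raw library totals. There the median of all genes was -0.35 and -0.58, and 10.8% and 16.9% of all genes were called lower. Mitf was the scarcest member, with 6 and 63 counts in mutant and 62 to 83 counts in wild type.

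The order of levels per kilobase of merged exons differed between the genotypes. Merged exons can be longer than any single transcript. They span 6.051 kb for Ctsb and 3.17 kb for Ctse, whose longest transcripts have 4743 and 2126 bases. Another length could give another order, which was not tried. Cd68, Ifi30 and Ctss have short transcripts, and among all genes short transcripts had higher fold changes, as given below. In mutant libraries the 5 highest mean levels were 2639 CPM per kb for Ctss, 1257 for Ctsz, 816 for Cd68, 607 for Ctsb and 550 for Psap. In wild type they were 361 CPM per kb for Psap, 353 for Ctse, 224 for Ctsz, 211 for Ctss and 209.7 for Lamp1. Within this order the wild-type ranges of Psap (348 to 386 CPM per kb) and Ctse (298 to 408 CPM per kb) overlapped. Those of Ctsz (188 to 245 CPM per kb), Ctss (178 to 233 CPM per kb) and Lamp1 (197 to 233 CPM per kb) overlapped too, all below Ctse. In mutant the ranges of Ctss (2307 to 2970.3 CPM per kb), Ctsz (1156 to 1359 CPM per kb) and Cd68 (727 to 904 CPM per kb) did not overlap, while those of Ctsb (516 to 698 CPM per kb) and Psap (451 to 649 CPM per kb) did. Cd68 ranked 3 in mutant and 11 in wild type, and Ifi30 ranked 7 in mutant and 21 in wild type. Ctse ranked 14 in mutant and 2 in wild type, and Mitf was last in both.

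**Figure D3:**
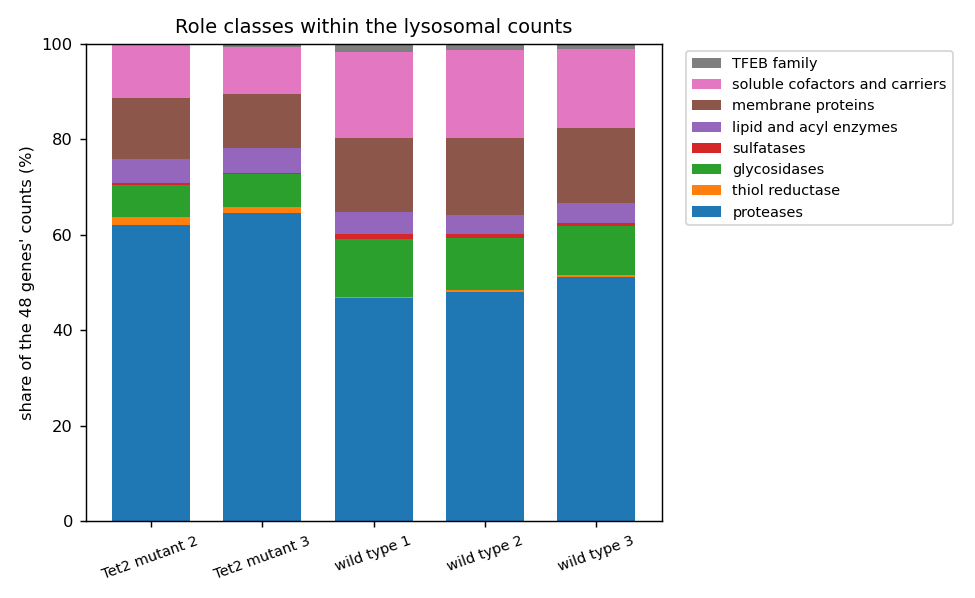
Share of the summed counts of the 48 genes (%, vertical axis from 0 to 100) held by each role class in each library, with the 2 Tet2 mutant libraries left of the 3 wild-type libraries. Proteases held 62.1% and 64.5% in mutant and 46.8% to 51.1% in wild type, and glycosidases 6.82% and 6.93% in mutant and 10.3% to 12.0% in wild type.

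Shares within the group give the same comparison without any scaling between libraries. Proteases took 62.1% and 64.5% of the group's counts in mutant, against 46.8%, 48.1% and 51.1% in wild type. Glycosidases took 6.82% and 6.93% in mutant, against 12.0%, 10.9% and 10.3% in wild type. The genotypes overlapped in neither share, and the ratio of protease to glycosidase counts was 9.11 and 9.32 in mutant, against 3.89, 4.42 and 4.97 in wild type. Membrane proteins took 11.3% to 12.7% in mutant and 15.4% to 16.2% in wild type, and cofactors and carriers 9.90% to 11.1% in mutant and 16.4% to 18.5% in wild type. Lipid and acyl enzymes took a slightly larger part in mutant, at 4.95% to 5.29% in mutant and 4.06% to 4.76% in wild type. A larger protease share lowers the other shares, so a lower share is not a lower level. Summed CPM of glycosidases was 1943 and 1468 in mutant, against 948 to 1107 in wild type. For membrane proteins it was 3631 and 2392, against 1409.5 to 1501, and for cofactors and carriers 3151 and 2099, against 1560 to 1667.

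Within the proteases the shares of Ctss and Ctse lay apart in opposite directions. Ctss alone held 14.2% and 14.8% of the group's counts in mutant, against 2.62%, 3.63% and 3.15% in wild type. Ctse held 3.35% and 0.890% in mutant, against 12.2%, 10.8% and 13.6% in wild type. Ctsb held 14.7% to 14.8% in mutant and 12.9% to 14.0% in wild type, a small difference beside that of Ctss. With Ctse left out, the ratio of protease to glycosidase counts was 8.61 and 9.19 in mutant, against 2.88, 3.42 and 3.64 in wild type. The ratio of Ctss to Ctsd counts, a pair picked after their values were seen, was 7.18 and 5.40 in mutant, against 0.481, 0.725 and 0.592 in wild type, and that of Lgmn to Ctsd was 0.669 and 0.535 in mutant, against 0.0537, 0.0628 and 0.0611 in wild type.

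Level and transcript length were set beside the calls, since both bear on which genes a count test reaches. Of all genes with a mean of 100 CPM or more 24.7% were called higher, against 14 of 26 lysosomal genes in that range (53.8%). Between 10 and 100 CPM 14% of all genes were called higher, against 1 of 18 lysosomal genes (5.56%). This mean is taken over both genotypes, so a gene can reach 100 CPM through its own rise. Lgmn, Ifi30, Ctso and Cd68 did so, with wild-type means of 28.4, 29.6, 34.8 and 85.3 CPM. The split by level therefore draws in part on the values tested. Among genes at 10 CPM or more, those with the shortest transcripts (57 to 1503 bases) had a median log2 fold change of 1.05, with 38.9% called higher, and those of 5934 bases or more had 0.03, with 8.61% called higher. Ifi30, Cd68, Ctss and Ctsz fall in the shortest octile, at 981, 1230, 1355 and 1441 bases. After subtraction of the median of the gene's length octile, the protease median was 1.57 and the glycosidase median 0.32. The 15 called genes then had values of 0.79 to 2.98. None of the 15 could turn negative, since their lowest estimate was 1.17 (Fuca1) and the largest octile median 1.05. The cause of the length trend was not tested.

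**Figure D4:**
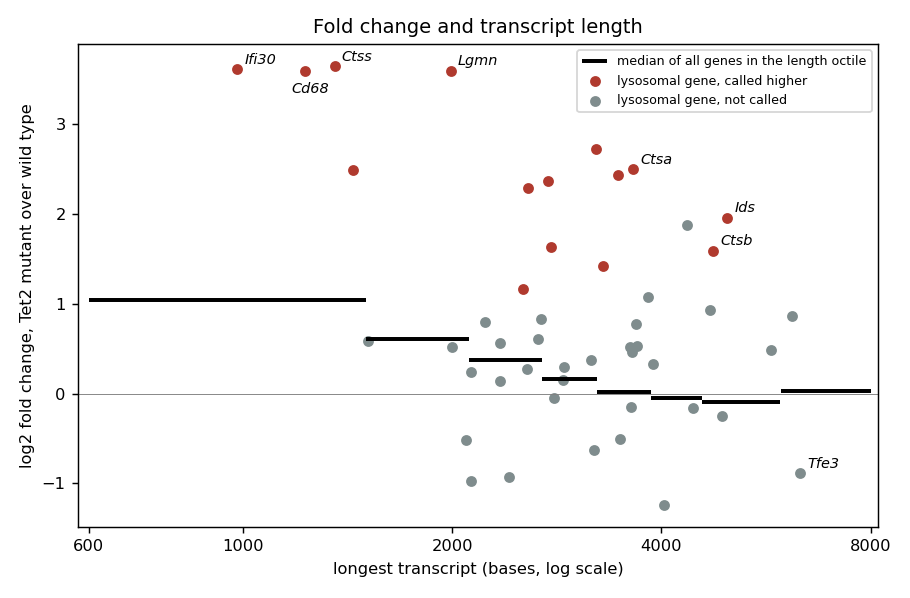
Log2 fold change (Tet2 mutant over wild type, vertical axis) of the 48 genes against their longest transcript (bases, log axis drawn from 600 to 8000), with genes called higher in red and the others in grey, and the median of all genes at 10 CPM or more in each length octile as a black line. The line is at 1.05 for the shortest octile and near 0 above 3229 bases. The lowest red point is at 1.17, so none could lie below the line.

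Other genes of lysosomal function were read from lists drawn up by what the proteins do. The length trend was not taken out of these lists. Their shares are set beside all genes tested, although 24.7% of all genes with a mean of 100 CPM or more were called higher. Of 24 other hydrolases and activators 7 rose (29.2%, against 10.6% of all genes tested) and 1 fell (4.17%, against 4.43%), with a median log2 fold change of 1.02. Gm2a, the activator that presents GM2 ganglioside to beta-hexosaminidase A, stood at 2323 and 2232 CPM in mutant, against 317, 293 and 336 CPM in wild type (log2 fold change 2.85 ± 0.24, edgeR adjusted p = 0.00124). The genotypes did not overlap, and within a library the ratio of Gm2a to Hexa counts was 6.87 and 5.68 in mutant, against 1.23, 1.17 and 1.32 in wild type. That ratio follows from the levels of both genes and adds no separate result. Acp5, the tartrate-resistant acid phosphatase, stood at 528 and 592 CPM in mutant, against 129, 165 and 128 CPM in wild type, without overlap (1.99 ± 0.24, adjusted p = 0.00434). The gene that fell was Galns, a sulfatase of keratan sulfate named here after its value was seen, with 23.5 and 25.6 CPM in mutant and 65.1 to 83.9 CPM in wild type (-1.60 ± 0.29, adjusted p = 0.0173).

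Some cathepsin inhibitors rose too. Of 14 inhibitors 11 were tested, 4 rose (36.4%, against 10.6% of all genes tested) and 0 fell, with a median log2 fold change of 0.63. Serpina3g, a mouse serpin that inhibits cysteine cathepsins, stood at 291 and 269 CPM in mutant, against 15.4, 17.6 and 22.9 CPM in wild type (log2 fold change 3.91 ± 0.27, edgeR adjusted p = 0.000847). Cst3, the secreted inhibitor cystatin C, stood at 1466 and 1238 CPM in mutant, against 215, 261 and 218 CPM in wild type (2.55 ± 0.25, adjusted p = 0.00189). Neither gene overlapped between the genotypes. Cstb, a cystatin of the cytosol, rose by 2.12 ± 0.26 and Serpinb9, known as an inhibitor of granzyme B, by 2.30 ± 0.35 (adjusted p = 0.00456 and 0.00981). Counts of Cst3 stood to those of Ctss at 0.363 and 0.395 in mutant, against 0.890, 0.825 and 0.729 in wild type, lower in mutant without overlap. Against Ctsd the ratio of Cst3 was higher in mutant, at 2.61 and 2.13, against 0.428, 0.598 and 0.432 in wild type.

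The V-ATPase, the proton pump that acidifies the lysosome, had 4 of 18 subunits higher (22.2%, against 10.6% of all genes tested) and 1 lower (5.56%, against 4.43%), with a median log2 fold change of 0.55. Atp6v0e, Atp6v1f and Atp6v1g1 rose by 1.77 ± 0.25, 1.70 ± 0.25 and 1.27 ± 0.25 (SE; edgeR adjusted p = 0.00727, 0.00906 and 0.0221). Atp6v1a, the catalytic subunit, stood at 67.3 and 59.2 CPM in mutant, against 174, 149 and 174 CPM in wild type, a log2 fold change of -1.39 ± 0.24 (adjusted p = 0.0161). By longest transcript Atp6v1f and Atp6v1g1 (806 and 1135 bases) fall in the shortest octile, with a median of 1.05 and 38.9% called higher. Atp6v0e (2812 bases) and Atp6v1a (4234 bases) fall in octiles with medians of 0.17 and -0.05. Of 18 nutrient sensing genes at the lysosome 5 were higher (27.8%, against 10.6%) and 1 was lower (5.56%, against 4.43%), with a median of 0.75. Lamtor5 and Lamtor3, subunits of the Ragulator complex, and the GTPase Rheb rose by 2.02 ± 0.25, 1.13 ± 0.26 and 1.45 ± 0.26 (adjusted p = 0.00498, 0.0344 and 0.0177). Tsc2, which inactivates Rheb, stood at 9.59 and 6.41 CPM in mutant, against 40.0, 24.0 and 28.5 CPM in wild type (-1.95 ± 0.44, adjusted p = 0.0330).

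Of 26 transporters, channels and other membrane proteins 3 rose (11.5%, against 10.6% of all genes tested) and 2 fell (7.69%, against 4.43%), shares near those of all genes, with a median log2 fold change of 0.48. Slc15a4, a peptide and histidine transporter, Unc93b1, the chaperone of endosomal Toll-like receptors, and Tmem192, a lysosomal membrane protein, rose by 1.59 ± 0.24, 1.26 ± 0.24 and 1.36 ± 0.28 (SE; edgeR adjusted p = 0.0100, 0.0209 and 0.0269). Clcn7, the chloride-proton exchanger, stood at 10.9 and 8.58 CPM in mutant, against 40.0, 27.7 and 32.9 CPM in wild type (-1.78 ± 0.38, adjusted p = 0.0296). The other gene that fell was Mfsd12, named after its value was seen (-1.60 ± 0.44, adjusted p = 0.0497). Of 14 genes of mannose 6-phosphate sorting, which delivers hydrolases to the lysosome, 1 rose (7.14%) and the median was 0.07. That gene was Nagpa, which uncovers the sorting tag, at 172 and 74.8 CPM in mutant and 44.9 to 52.0 CPM in wild type (1.36 ± 0.37, adjusted p = 0.0487). Of 22 autophagy genes 2 rose (9.09%), namely the cargo receptor Sqstm1 (1.05 ± 0.25, adjusted p = 0.0387) and Map1lc3b, which coats the autophagosome membrane (1.06 ± 0.27, adjusted p = 0.0423). The shares of the sorting and autophagy lists were near the 10.6% of all genes tested.

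**Figure D5:**
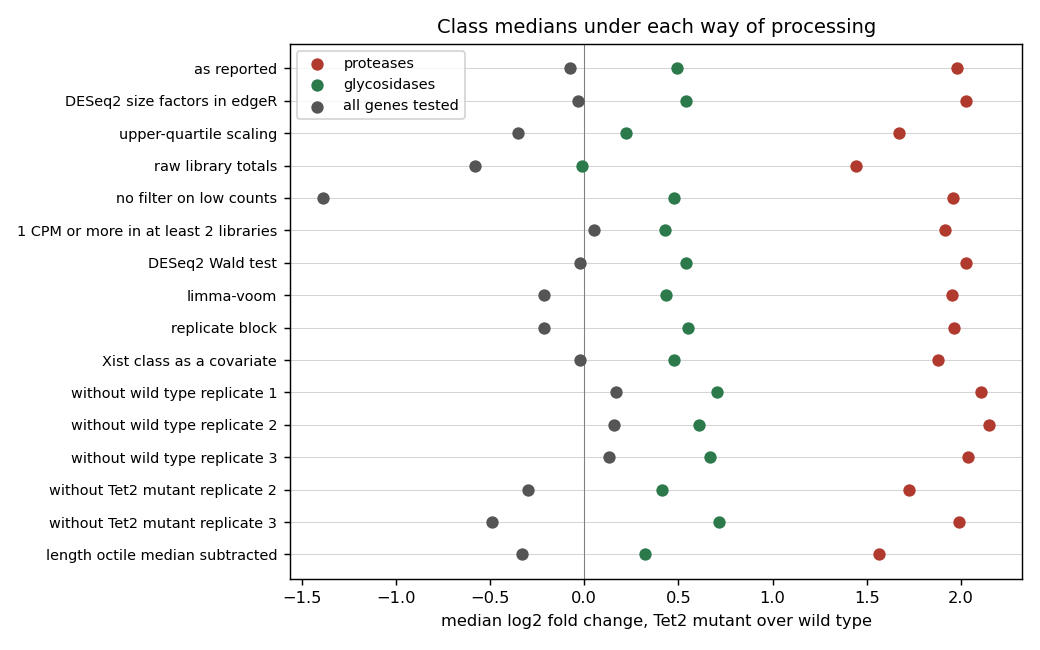
Median log2 fold change (Tet2 mutant over wild type, horizontal axis) of the 14 proteases (red), the 10 glycosidases (green) and all genes tested (grey) under each way of processing, one row per setting. The protease median stays at 1.44 or above and the glycosidase median at 0.72 or below in every row, while the median of all genes moves between -1.39 and 0.17.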

How the data were processed

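Per the labels' protocols, RNA was extracted with an RNeasy mini plus kit and libraries were made from 1.3 ug of it with a SMARTer kit. The deposited files hold the authors' raw counts per gene symbol, 1 file per library. Per the submitters' processing notes, Trimmomatic and STAR were used with mm10; the sources used here do not give the counter, annotation or strand setting, so reads of overlapping or antisense genes cannot be told apart. No molecular identifiers are named, so errors treat amplified reads as counts.

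Counts were analysed in R 4.3.3 with edgeR 4.0.16 (filterByExpr, TMM factors of 0.723 and 0.896 in mutant and 1.14 to 1.17 in wild type, quasi-likelihood F-test, Benjamini-Hochberg adjustment over 17062 genes). The SE of a log2 fold change was taken as its size divided by the square root of F. DESeq2 1.42.0 and limma 3.58.1 served as alternatives. A count of 3 was taken as the floor, which is 0.0554 to 0.238 CPM in mutant and 0.0358 to 0.0490 CPM in wild type. Positions, exon lengths and transcripts come from GENCODE M21 (GRCm38). On simulated counts of 12362 genes the test called 1, 21, 29 and 47 of 50 genes changed 2-fold, 4-fold, 8-fold and 16-fold, and 9 of 12162 unchanged genes. No 2 libraries agreed within sampling noise.

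Members and lists were chosen with earlier results of these data known. All 48 members were named, with up to 4 called genes of smallest p from each pathway list, of which 2 are not reported here. The genotypes share replicate numbers 2 and 3, which the test did not use. Alternatives changed scaling, filter, test, covariate, block or library, and a length correction was added after seeing the data. The symbol BC100530 was not used here.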

Additional observations from a re-analysis of the deposited data

How the results depend on the processing

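Of the 48 genes, 15 were called higher and 0 lower. The higher count was 16 with DESeq2 size factors, 15 with upper-quartile scaling, 14 with raw library totals, 17 without a filter on low counts, 17 with DESeq2's test, 16 with limma-voom and 4 with Xist class as a covariate, where 101 of all genes were called higher. The lower count was 2 with upper-quartile scaling, 3 with raw library totals, 2 without a filter and 1 with limma-voom. All genes were 6.92% higher and 16.9% lower with raw library totals, and 8.32% and 10.8% with upper-quartile scaling. They were 17.4% higher and 12.5% lower with DESeq2's test, and 10.8% and 8% with limma-voom. The shares were 11.1% and 4.08% with DESeq2 size factors, and 9.98% and 4.89% without a filter. Leaving out each library in turn gave 13 to 26 members higher and 0 to 5 lower, where all genes gave 3.81% to 26.5% higher and 0.0371% to 32.2% lower, both shares highest without Tet2 mutant replicate 2. It gave a member median of 0.46 to 0.84, a protease median of 1.72 to 2.15 and a glycosidase median of 0.41 to 0.72. The member median was 0.28 with upper-quartile scaling and 0.036 with raw library totals. The protease median was 1.67 with upper-quartile scaling, 1.44 with raw library totals and 1.57 after the length correction, and the glycosidase median 0.22, -0.012 and 0.32 under those settings. Ctss, Lgmn, Cd68 and Ctsh were called in all 14 alternatives that gave a test. Ctsa, Ctsb, Ctsc, Ctso, Ctsz, Ifi30, Asah1 and Ppt1 lost their call with the Xist covariate alone. Ctsk, not called, ranged with a library left out between -3.95 without Tet2 mutant replicate 2, where the library with 18 counts was left, and 1.56 without Tet2 mutant replicate 3. For the other shifts the cause was not tested.

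The replicate numbers could not be shown to pair libraries: same-numbered libraries had correlations of deviations of -0.03 and -0.02. With a replicate block 12 members were called higher, losing Fuca1, Ids and Npc2, and 752 of all genes were called higher and 232 lower.

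Depth limits scarce members most: Mitf had 6 counts and Arsa 54 in mutant replicate 2.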
